A study of Mus musculus with 8 samples.

Results

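The 10 genes described here encode the vascular endothelial growth factor (VEGF) ligands *Vegfa*, *Vegfb*, *Vegfc* and *Pgf*, the VEGF receptors *Flt1* (VEGFR1), *Kdr* (VEGFR2) and *Flt4* (VEGFR3), the angiopoietins *Angpt1* and *Angpt2*, and the angiopoietin receptor *Tek* (TIE2). They were taken by gene symbol from the 22873 genes of a single nucleus RNA-seq data set of the mouse iris, and all 10 were present. The data comprised 34357 nuclei in 8 libraries, each prepared from 5 to 6 irises of female albino mice, aged 6 to 8 weeks and labelled wild type, with an attached part of the ciliary body. In 3 libraries the irises were untreated. In 3 libraries the pupils had been constricted with drops of 5% pilocarpine given every hour in the light, and in 2 libraries they had been dilated with 5% phenylephrine and 1% cyclopentolate given every hour in the dark. Eyes of both treated groups were collected after 6.5 h, so the drugs and the lighting differed together between them. Each nucleus carried one of 10 cell types assigned by the authors: dilator muscle, sphincter 1 and sphincter 2 (the sphincter muscle), iris PE (pigment epithelium), CBE (ciliary body epithelium), CB (non-epithelial ciliary body cells), stroma 1, stroma 2, endothelial cells and leukocytes. Mice, not nuclei, are the source of biological variation. Irises were pooled, so the spread between libraries is the only replicate error available.

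VEGF-A is the main ligand of VEGFR1 and VEGFR2 and drives the growth and permeability of blood vessels, whereas VEGF-B and placental growth factor (encoded by *Pgf*) bind VEGFR1 alone, and VEGF-C acts through VEGFR3 and VEGFR2. VEGFR1 also exists as a soluble form that captures ligand. Angiopoietin 1, made mostly by cells around vessels, activates TIE2 on endothelial cells and stabilizes the vessel wall, and angiopoietin 2 modulates or opposes this signal. The iris has a dense vascular bed, and VEGF in the aqueous humor is known for its part in the growth of abnormal iris vessels after retinal ischemia.

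Levels are given as counts of unique molecular identifiers (UMIs) of a gene per 1000000 UMIs summed over the nuclei of a library and cell type (CPM). Each library held 5189437 to 25136427 UMIs, and the median nucleus of a library held 2775 to 4697.5. Endothelial nuclei were few, with 273 in all and 12 to 65 per library, so that 26113 to 173881 endothelial UMIs stood behind a value. Over all libraries the members gave from 150 UMIs (*Flt4*) and 295 UMIs (*Kdr*) to 10903 UMIs (*Vegfb*). The endothelial label was checked against 12 marker genes, whose summed level in untreated libraries was 6039 to 6981 CPM in endothelial cells, 1959 to 2046 CPM in CBE, 1227 to 1311 CPM in iris PE and 52.8 to 75.4 CPM in dilator muscle. *Mecom* alone gave 2755 to 3277 CPM of the endothelial sum. *Cdh5*, the endothelial cadherin gene, had 167 to 388 CPM in untreated endothelial cells and at most 1.21 CPM in untreated dilator muscle and stroma 2. In the same nuclei 8 leukocyte markers summed to 0 to 167 CPM and 8 pericyte markers to 19.4 to 127 CPM. *Prox1*, which defines lymphatic endothelium, was found in 4 of the 273 nuclei. Muscle, epithelial and stromal genes were also present in endothelial nuclei, where 6 iris muscle markers summed to 494 to 1457 CPM. *Chrm3* alone gave 153 to 1230 CPM of this sum, against 17.8 to 37.4 CPM in dilator muscle. *Myh11* gave 0 to 419 CPM and *Acta2* 0 to 233 CPM. Low values of a member in these nuclei may hold RNA of other cells, whose part was not tested. Scrublet called 17 of the 149 untreated endothelial nuclei doublets (11.4%), 0 of 51 constricted and 3 of 73 dilated ones. Without them *Flt1* was found in 98.5% and *Tek* in 85.6% of untreated endothelial nuclei. Cell barcodes were compared as deposited, and the largest number shared by 2 libraries was 0. Whether they carry a suffix of the library was not checked, and with one the value would be 0 in any case. Clusters were made from the same counts, so levels in different cell types are described without a test.

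The genes lie at the following places of GRCm38 (mm10) in the GENCODE annotation, each value covering the whole gene, exons and introns. *Vegfa* is at chr17:46016993-46032369, *Vegfb* at chr19:6982473-6987651, *Vegfc* at chr8:54077606-54187096 and *Pgf* at chr12:85166635-85177790. *Flt1* is at chr5:147561604-147726011, *Kdr* at chr5:75932827-75978458 and *Flt4* at chr11:49609263-49652739. *Angpt1* is at chr15:42424723-42676977, *Angpt2* at chr8:18690263-18741562 and *Tek* at chr4:94739289-94874976. *Angpt1* and *Angpt2* each overlap 1 gene of the opposite strand.

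In untreated irises 5 of the 10 members had their highest level in endothelial cells: the receptors *Flt1*, *Kdr*, *Flt4* and *Tek* and the ligand *Vegfc*. For each of them the 3 untreated libraries lay above those of the next cell type. The share of all genes with such a pattern is not given, so the count has no background. The other members were highest in cells outside the vessels: *Vegfa* in CB, *Vegfb* in dilator muscle, *Pgf* and *Angpt2* in stroma 2, and *Angpt1* in sphincter 1. The lead of *Pgf* and *Angpt2* was within the spread between libraries.

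**Figure D1:**
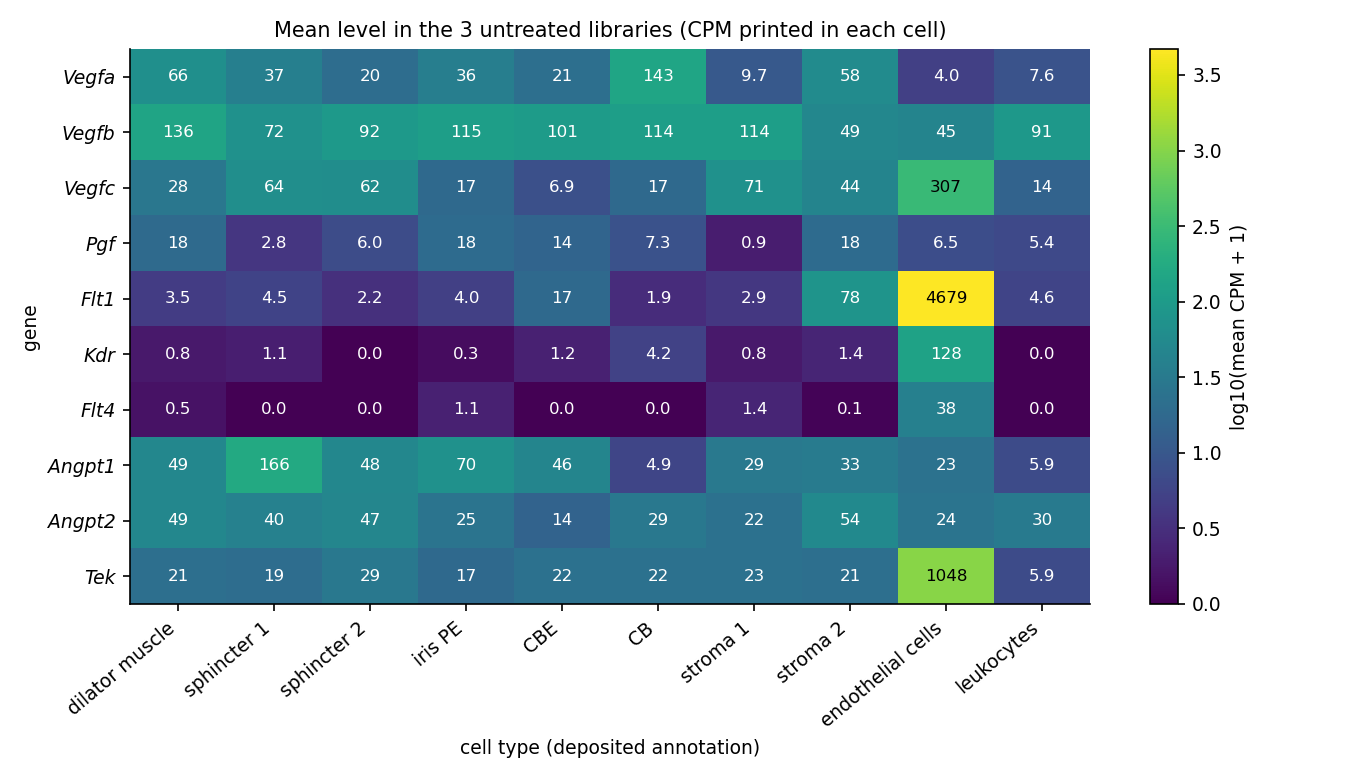
Mean level of the 10 genes (rows) in the 10 cell types (columns) of the 3 untreated libraries, with the mean CPM printed in each cell and color on a log10(mean CPM + 1) scale. *Flt1* reached 4679 CPM and *Tek* 1048 CPM in endothelial cells, where *Vegfa* was at 4.0 CPM.

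*Flt1*, whose product binds VEGF-A, VEGF-B and placental growth factor, was measured at 4848, 4968 and 4221 CPM in the endothelial cells of untreated replicates 1, 2 and 3 (4679 ± 401, SD, n = 3). All 8 libraries lay between 4221 and 5409 CPM, with no separation by treatment. At least 1 *Flt1* UMI was present in 147 of 149 untreated endothelial nuclei (98.7%), against 1.24% of dilator nuclei, although the median endothelial nucleus was shallower (1957 UMIs against 3410). After thinning of each nucleus to 1000 UMIs, which 142 of the 149 endothelial and 4331 of the 4357 dilator nuclei had, the shares were 92.3% and 0.393%. Per library, the endothelial level was 138 to 483 times that of all other nuclei together.

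*Tek*, the receptor for both angiopoietins, was measured at 1008, 1158 and 978 CPM in untreated endothelial cells (1048 ± 96.6, SD, n = 3). It was detected in 128 of 149 untreated endothelial nuclei (85.9%; 66.2% after thinning). The constricted libraries had 1214, 1096 and 1302 CPM and the dilated libraries 1114 and 639 CPM, so that 1 dilated library overlapped the untreated range and the other lay below it. Over all libraries 214 of 273 endothelial nuclei held UMIs of both *Flt1* and *Tek*, and 5 held neither.

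*Kdr*, the receptor through which most VEGF-A signalling in endothelium passes, was sparse. Untreated endothelial cells had 116, 146 and 121 CPM (128 ± 15.7, SD, n = 3), from 50 UMIs in 26 of 149 nuclei. Outside endothelial cells the mean level was 0.846 CPM. The constricted libraries had 442, 936 and 38.3 CPM and the dilated libraries 447 and 61.8 CPM. Both treated groups therefore held libraries above and below all untreated ones. The value of 936 CPM came from 12 nuclei, of which 8 held *Kdr*, with up to 11 UMIs in 1 nucleus. Of 67 endothelial nuclei with *Kdr* 66 also held *Flt1*, a share near that of *Flt1* in all endothelial nuclei (264 of 273).

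*Flt4*, the VEGF-C receptor best known from lymphatic endothelium, gave 17 UMIs in untreated endothelial cells, at 19.4, 38.0 and 57.5 CPM. The constricted libraries had 88.3, 187 and 115 CPM and the dilated libraries 241 and 103 CPM. All treated libraries lay above all untreated ones, on 1 to 10 UMIs per untreated library, 3 to 7 per constricted library and 34 and 5 in the dilated libraries. *Flt4* did not pass the filter on low counts within any cell type, so the conditions were not compared for it. It entered 2 joint models of dilator muscle with another cell type, described below, and neither difference in the effect of dilation passed. That effect in dilator muscle minus that in endothelial cells was -2.22 ± 1.31 (SE, adjusted p = 0.80). Its UMIs were found in 44 endothelial nuclei, all 44 with *Flt1* and 19 with *Kdr*. Of all endothelial nuclei 96.7% held *Flt1* and 24.5% held *Kdr*. Dilated replicate 1 gave 9 of the 19, and 44.9% of its endothelial nuclei held *Kdr*. In untreated libraries 4 of 16 nuclei with *Flt4* held *Kdr*, against 17.4% of all endothelial nuclei there. In untreated libraries *Flt4* was at 0 UMIs in 5 cell types, which allows levels of up to 1.56 to 6.58 CPM, and *Kdr* was at 0 in sphincter 2 and leukocytes (up to 2.37 and 6.58 CPM). These limits cover counting error only.

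**Figure D2:**
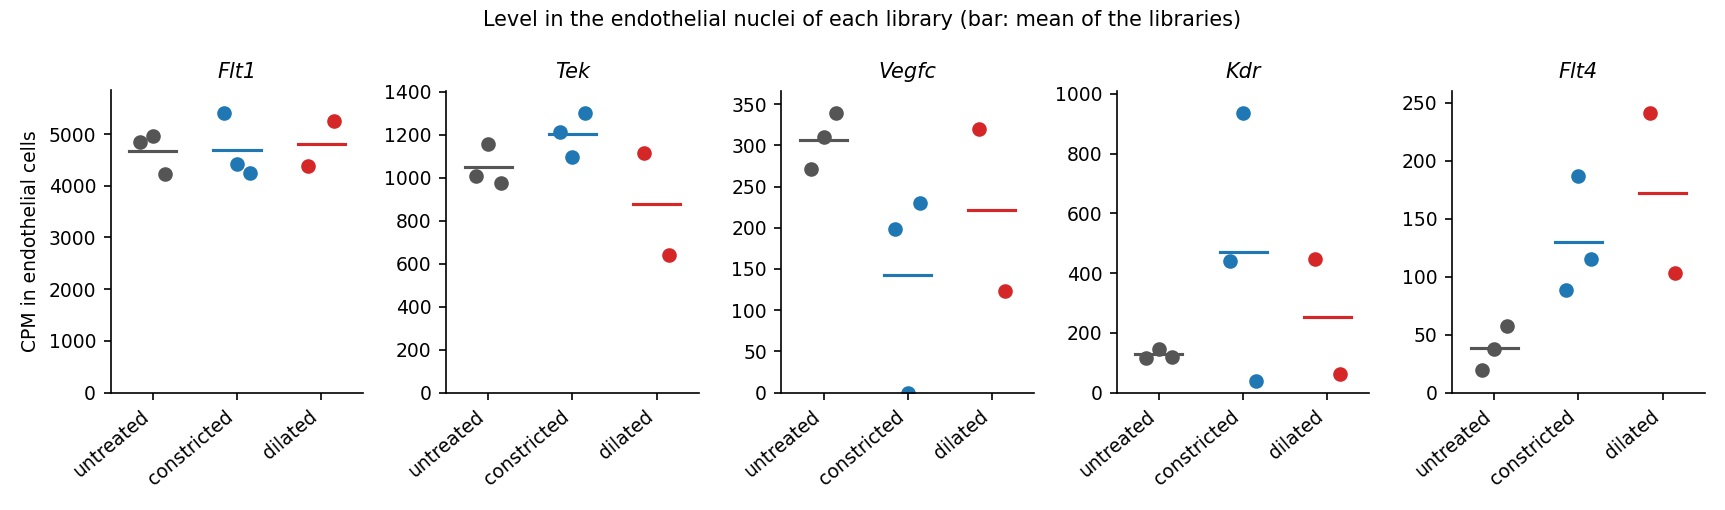
CPM of 5 genes in the endothelial nuclei of each library (points) by treatment, with the mean of the libraries as a bar. *Flt1* lies between 4221 and 5409 CPM in every library, whereas *Kdr* spreads from 38.3 to 936 CPM among the constricted libraries.

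Because these receptors shared their place of highest level, the sequences just upstream of 3 of their start sites are shown, to set beside *Erg*, an ETS factor of endothelium whose pattern over the cell types was the closest to that of *Tek*. The windows are from RefSeq (GRCm38.p6), 5′ to 3′ on the strand of the gene. *Flt1* lies on chromosome 5 (chr5:147726012-147726261, minus strand), *Kdr* on chromosome 5 (chr5:75978459-75978705, minus strand) and *Tek* on chromosome 4 (chr4:94739039-94739288, plus strand). Each ends at the base before the annotated gene. Capitals mark the core letters of ETS sites, AGGAA or CGGAA, on either strand.
Flt1: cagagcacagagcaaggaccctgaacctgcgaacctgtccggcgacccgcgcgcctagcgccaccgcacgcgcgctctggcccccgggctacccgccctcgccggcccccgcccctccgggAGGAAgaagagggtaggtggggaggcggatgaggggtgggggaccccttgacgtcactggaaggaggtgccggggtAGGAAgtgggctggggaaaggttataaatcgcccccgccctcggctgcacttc
Kdr: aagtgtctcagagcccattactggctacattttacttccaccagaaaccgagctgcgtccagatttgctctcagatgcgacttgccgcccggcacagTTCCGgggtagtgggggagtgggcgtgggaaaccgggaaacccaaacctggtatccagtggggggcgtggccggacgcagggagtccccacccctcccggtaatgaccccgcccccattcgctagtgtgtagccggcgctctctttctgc
Tek: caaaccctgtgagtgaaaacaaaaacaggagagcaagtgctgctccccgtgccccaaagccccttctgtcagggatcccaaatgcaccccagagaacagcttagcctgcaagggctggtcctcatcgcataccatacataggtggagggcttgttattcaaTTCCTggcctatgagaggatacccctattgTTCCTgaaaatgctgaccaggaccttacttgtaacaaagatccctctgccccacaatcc
*Flt1* held 2 matches, *Kdr* 1 and *Tek* 2. These letters are frequent: 71.4% of 32851 promoter windows of 250 bases held at least 1 match, and the median window held 1. The window listed for *Flt4* lies inside the gene as annotated by GENCODE, is not shown, and held 0 matches.

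*Vegfc*, the ligand of VEGFR3, was the only member among the ligands with its highest level in endothelial cells, at 272, 310 and 339 CPM in untreated libraries (307 ± 34.0, SD, n = 3). This was 4.33 times the mean of the next cell type, stroma 1 (70.9 CPM), whose libraries overlapped those of sphincter 1 (64.0 CPM) and sphincter 2 (61.8 CPM). Of the untreated endothelial nuclei 43.0% held a *Vegfc* UMI. The constricted libraries had 199, 0 and 230 CPM and the dilated libraries 319 and 124 CPM. The library at 0 (constricted replicate 2) held 37395 endothelial UMIs, which allows up to 80.2 CPM. Endothelial cells were 1.12% of untreated nuclei, and stroma 1, stroma 2 and dilator muscle together gave most *Vegfc* UMIs, with dilator muscle giving 26.0% ± 4.64 (SD, n = 3).

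*Vegfa* had the opposite distribution. It gave 2 UMIs in all endothelial nuclei of the untreated libraries and 0 in those of the treated libraries. The highest level was in CB, at 208, 101 and 122 CPM in the untreated libraries, and CB exceeded dilator muscle in 8 of 8 libraries, by 1.69 to 2.67 times. It also exceeded CBE in 8 of 8 libraries, by 2.41 to 11.7 times. Dilator muscle (77.9, 59.1 and 59.6 CPM) and stroma 2 (83.4, 43.8 and 45.6 CPM) followed and overlapped each other. Stroma 1 was low (9.73 ± 4.05 CPM, SD, n = 3). Because dilator nuclei were numerous, they supplied 44.0% ± 6.5 of the *Vegfa* UMIs (SD, n = 3), with 29.5% of the nuclei.

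*Vegfb*, a VEGFR1 ligand that is widespread in muscle and other tissues, was the most even of the ligands. Its untreated means ran from 45.0 CPM in endothelial cells and 49.1 CPM in stroma 2 to 136 CPM in dilator muscle (127, 140 and 141 CPM). Dilator muscle stood apart from iris PE (115 CPM), which overlapped CB, and CB overlapped stroma 1 (both 114 CPM). Stroma 1 exceeded stroma 2 in 8 of 8 libraries, by 1.89 to 3.44 times.

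*Pgf*, the other VEGFR1 ligand, was low. Stroma 2 (21.8, 19.4 and 13.9 CPM), iris PE (15.9, 18.7 and 19.5 CPM) and dilator muscle (17.5, 17.3 and 18.0 CPM) overlapped in untreated libraries. Stroma 1 gave 4 *Pgf* UMIs in 1292 untreated nuclei (0.937 CPM), below stroma 2 in 8 of 8 libraries. In the untreated libraries stroma 1 and stroma 2 did not overlap in *Vegfa*, *Pgf* and *Angpt2*, which were higher in stroma 2. They did not overlap in *Vegfb* and *Vegfc* either, which were higher in stroma 1. The receptor gene *Flt1* was apart too, with means of 78.2 CPM in stroma 2 and 2.94 CPM in stroma 1. The share of all genes that keep these types apart is not given, so the list has no background.

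*Angpt1*, the TIE2 agonist, was highest in sphincter 1, at 124, 158 and 217 CPM in untreated libraries (166 ± 47.0, SD, n = 3), with UMIs in 33.1% of nuclei (13% after thinning). Sphincter 2, the other group of sphincter nuclei, had 82.5, 27.1 and 35.6 CPM. Sphincter 1 was the higher in 8 of 8 libraries, by 1.5 to 7.16 times, and was above iris PE (69.9 CPM) in 7 of 8. The exception, constricted replicate 2, had 66.6 CPM in sphincter 1 and 111 CPM in iris PE. Endothelial cells had 23.1 ± 14.1 CPM (SD, n = 3), from 7 UMIs. Sphincter 1 was 3.68% of the untreated nuclei and gave 13.3% ± 6.75 of the *Angpt1* UMIs, behind iris PE with 34.2% ± 4.72 (SD, n = 3 each).

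*Angpt2*, the context-dependent TIE2 ligand, which in other tissues is made largely by endothelium, was not highest there in untreated libraries. Untreated endothelial cells had 19.4, 25.3 and 28.8 CPM, from only 1, 4 and 5 UMIs. Stroma 2 had a mean of 53.7 CPM, close to dilator muscle with 49.5 CPM, and sphincter 2 (47.0 CPM) and sphincter 1 (39.8 CPM) followed, with libraries of each overlapping the next. Dilator muscle exceeded iris PE in 8 of 8 libraries, by 1.45 to 2.33 times. In endothelial cells the treated libraries ranged from 0 to 134 CPM, on both sides of the untreated ones. The library at 0 (constricted replicate 3) allows up to 115 CPM.

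*Flt1* and *Tek* were also found outside endothelial cells, in different ways. *Flt1* was measured at 104, 86.9 and 43.6 CPM in stroma 2 of the untreated libraries (78.2 ± 31.1, SD, n = 3), above dilator muscle in 8 of 8 libraries, by 10.6 to 57.0 times. The share of all untreated *Flt1* UMIs that stroma 2 supplied was 21.6% ± 4.60 (SD, n = 3), against 72.4% ± 5.10 for endothelial cells. Over all libraries 852 of 6763 stroma 2 nuclei (12.6%) held *Flt1*, of which 419 held more than 1 UMI. In untreated libraries the share was 9.51%, or 5.2% after thinning, against 0.619% (0.234% after thinning) in stroma 1.

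Of the 12 endothelial markers, 3 or more were detected in 137 of the 6763 stroma 2 nuclei, and these held 39 of the 1746 *Flt1* UMIs in stroma 2. At least 1 marker was found in 29.5% to 63.2% of the nuclei with *Flt1*, per library, and in 38.8% to 68.3% of those without. *Cldn5*, a tight junction gene, was less frequent among nuclei with *Flt1* in 8 of 8 libraries (2.27% to 20.4%, against 12.6% to 46.0%). *Erg* was more frequent among them in 7 of 8 libraries, with 0 to 17.4% against 0.481% to 5.17%. *Cdh5* was at 1.62 CPM or less in stroma 2 of every library. Stroma 2 was also the cell type with the highest *Pdgfrb* (262 CPM) and *Nrp2* (1214 CPM) and had high *Nrp1* (1007 CPM). The neuropilins encoded by the last pair are co-receptors of VEGF ligands. *Tie1*, the partner receptor of TIE2, and *Ptprb*, a phosphatase that restrains TIE2, kept to endothelial cells in contrast, with 220 ± 47.5 and 1227 ± 74.4 CPM there (SD, n = 3) and means of at most 3.33 and 6.27 CPM elsewhere.

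*Tek* outside endothelial cells varied by library. All nuclei other than endothelial had 43.2, 6.60 and 9.99 CPM in untreated replicates 1, 2 and 3. The constricted libraries had 23.1, 11.3 and 8.60 CPM and the dilated libraries 17 and 8.19 CPM. In untreated replicate 1 the level was raised in all 8 cell types other than endothelial cells and leukocytes, at 28.5 to 64.1 CPM, whereas untreated replicate 2 had 4.78 to 18.9 CPM in the same types. *Tek* UMIs were in 14.1% of the non-endothelial nuclei of untreated replicate 1 and in 1.94% to 6.20% of those of the other libraries. After thinning the values were 4.31% and 0.708% to 2.13%. The ratio of *Flt1* to *Tek* UMIs was 3.26 to 8.23 in endothelial cells and 0.0676 to 0.548 in dilator muscle. The replicate numbers are names only, and the 3 libraries with the most *Tek* outside endothelium bear library numbers 2 to 4 in the labels. The part of this series in the result was not tested.

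**Figure D3:**
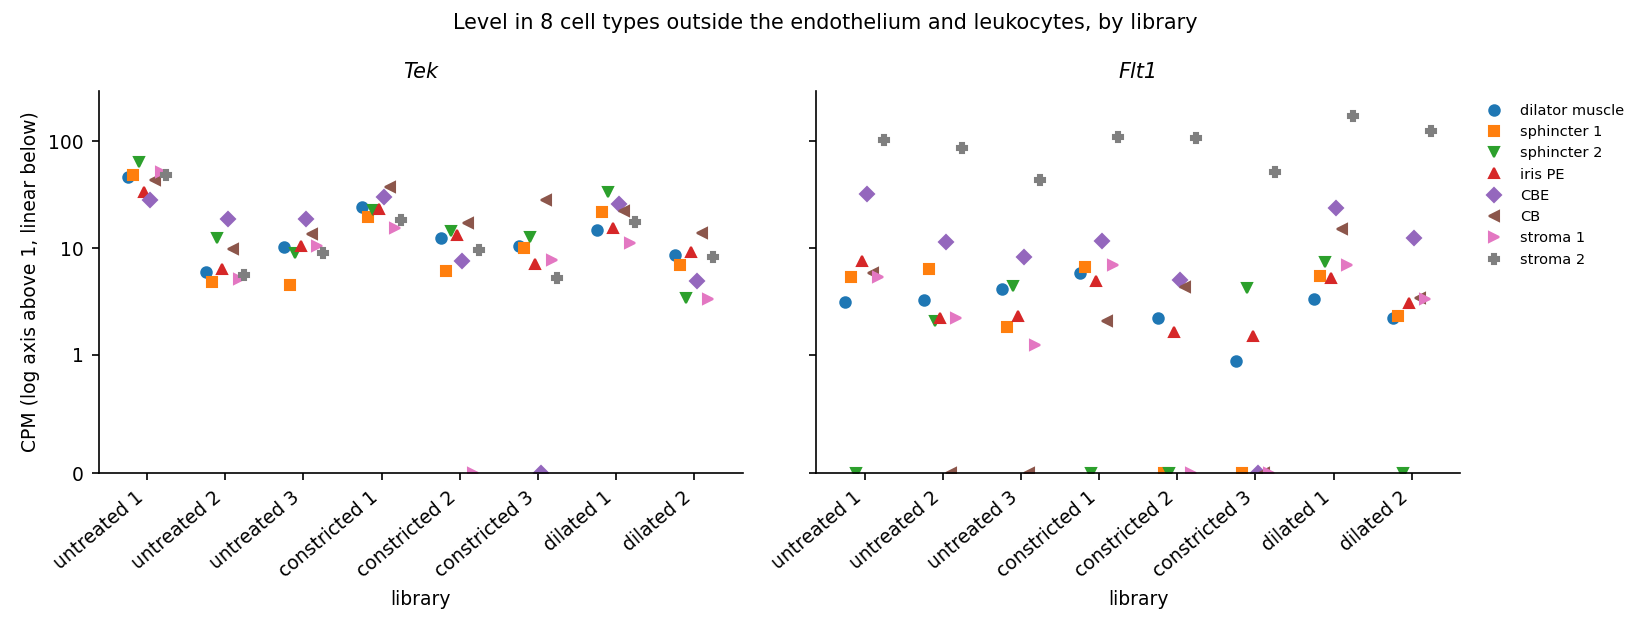
*Tek* (left) and *Flt1* (right) in 8 cell types (symbols) of each library (x axis), in CPM on an axis that is logarithmic above 1 and linear below. *Tek* moves with the library in nearly all types and is highest in untreated replicate 1, whereas *Flt1* is at 43.6 to 172 CPM in stroma 2 and at most 32.0 CPM elsewhere.

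The genes whose untreated levels over the 10 cell types were most like each member (Pearson correlation of log2(CPM + 10), among 14781 genes with at least 100 untreated UMIs) are given as a description. For *Tek* they were *Erg*, an endothelial transcription factor (r = 0.990), *Slco1a4* (0.987) and *A430090L17Rik* (0.987). For *Flt1* they were *Grasp* (0.985), *Slc9a3r2* (0.984) and *Sema3g*, a secreted semaphorin (0.984). For *Vegfa* they were *Tsr2* (0.964), *Pcdh18* (0.953) and *Ccdc189* (0.930), and for *Angpt1* *Pdzk1* (0.935), *Gm3854* (0.932) and *Adam18* (0.927). For *Vegfc* they were *Arih2* (0.972), *Itga5* (0.959) and *Aco1* (0.952), and for *Vegfb* *Hs2st1* (0.935), *Rhoq* (0.924) and *Cyc1* (0.921). For *Pgf* they were *Cd81* (0.937), *Mrc2* (0.907) and *Bex3* (0.903), and for *Angpt2* *Smc5* (0.932), *Cldn10* (0.916) and *Tipin* (0.899). *Kdr* and *Flt4* had fewer than 100 untreated UMIs and were left out. The points share libraries, and correlations over 10 cell types are high for many genes.

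Dilation was then compared with no treatment. The dilated irises had received drops of phenylephrine and cyclopentolate in the dark, and the untreated ones had no drops. Folding of the iris, the drugs and the lighting therefore cannot be told apart in this comparison. In dilator muscle none of the 8 members tested passed an adjusted p of 0.05 with an absolute log2 fold change above 0.6 (edgeR's quasi-likelihood test), where 13.3% of the 15395 genes tested did. Over all cell types 53 tests of members were possible and 0 passed, against 3.34% of 85092 tests of all genes. *Kdr* was tested in endothelial cells only and *Pgf* in 3 cell types. *Flt4* did not pass the filter on low counts in any cell type, and in leukocytes no member passed it, although other genes were tested there. At an unadjusted p under 0.05 there were 8 of the 53 member tests, against 13.1% of all tests. DESeq2 also called 0, with 6 unadjusted p-values under 0.05 among 98 tests. Libraries of 1 library-number series (2 to 4, or 15 to 18) deviated together from their condition means in dilator muscle. The r across genes was 0.17 to 0.48 in the 8 pairs, which are not independent, because deviations within a condition sum to 0. With the series as a block 2 members were called, *Pgf* in dilator muscle and *Vegfa* in stroma 2. The sums were scaled by their totals, so the number of nuclei of a type and the UMIs per nucleus do not enter the fold changes directly. The median dilator nucleus held 3800 and 3660 UMIs in the dilated libraries and 3926, 3379.5 and 3344.5 in the untreated ones. In dilator muscle the raw CPM ratio of the median gene was 0.19 lower (log2) in dilated libraries, and the fitted values are relative to a scale that takes this out.

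**Figure D4:**
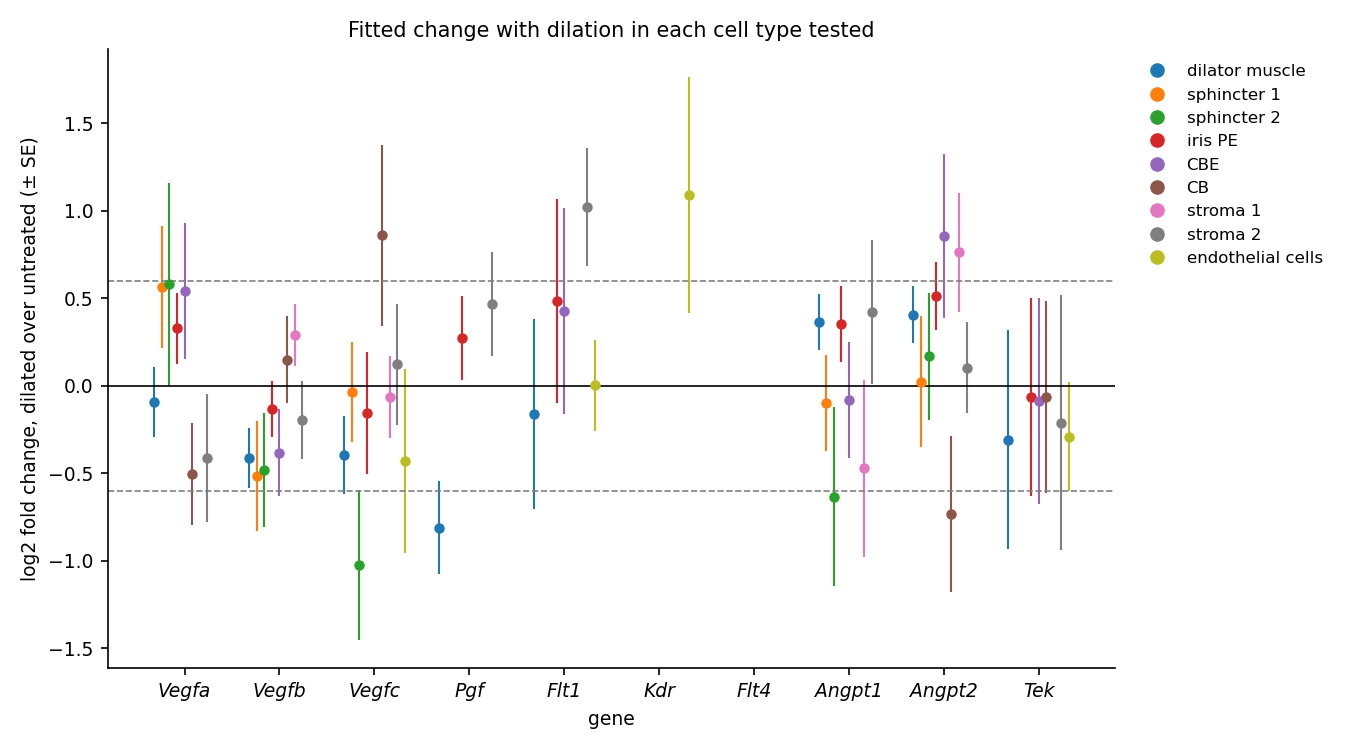
Fitted log2 fold change of dilated over untreated libraries (y axis, points, with the SE as a line) for each member (x axis) in each cell type where it was tested (color), with dashed lines at 0.6 and -0.6. The values run from -1.02 (*Vegfc* in sphincter 2) to 1.09 (*Kdr* in endothelial cells), and none passed the test.

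Among the ligands, *Pgf* in dilator muscle came closest. It was at 17.5, 17.3 and 18.0 CPM in untreated, 16.8, 14.2 and 18.0 CPM in constricted, and 6.91 and 11.2 CPM in dilated libraries. Both dilated libraries lay below all others, with a fitted log2 change of -0.81 ± 0.27 (SE) and an adjusted p of 0.061. Adjusted p-values under the alternatives ran from 0.022 to 0.45. It was -0.39 (adjusted p = 0.45) without dilated replicate 1, and passed without dilated replicate 2 (-1.25, adjusted p = 0.022) and with the library-number series as a block (-0.72, adjusted p = 0.028). Within the series the raw ratio was -1.34 for library numbers 2 to 4 and -0.66 for 15 to 18. In iris PE the dilated libraries had 19.9 and 24.0 CPM, above all untreated ones (15.9 to 19.5 CPM), with a change of 0.27 ± 0.24. In stroma 2 they had 20.5 and 28 CPM, overlapping the untreated ones, with a change of 0.47 ± 0.30.

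The difference between these effects was tested in joint models of dilator muscle and 1 other cell type, in which every library had its own term. The change of *Pgf* with dilation was lower in dilator muscle than in iris PE by 1.15 on the log2 scale (SE 0.23, adjusted p = 0.0012) and lower than in stroma 2 by 1.35 (SE 0.30, adjusted p = 0.0088). Both *Pgf* tests used the same dilator muscle counts, so they are not independent. For *Vegfb* the change was lower in dilator muscle than in stroma 1 by 0.69 (SE 0.18, adjusted p = 0.014). These were the 3 of 73 such tests of members that passed, against 4.52% of all 125677 tests. Lower values passed in 1.98% of all tests, and in 4.56% of those against iris PE, 3.42% against stroma 2 and 1.68% against stroma 1. An unadjusted p under 0.05 was found in 15 member tests, against 14.8% of all tests. DESeq2 kept 1 of the 3, *Pgf* against iris PE. Without dilated replicate 1 none of the 3 passed: *Pgf* had -0.85 (adjusted p = 0.079) against iris PE and -1.26 (0.052) against stroma 2, and *Vegfb* -0.68 (0.14) against stroma 1. *Pgf* against stroma 2 was also lost without untreated replicate 3 (-1.10, adjusted p = 0.091), and *Vegfb* against stroma 1 without untreated replicate 2 (-0.62, adjusted p = 0.092). Without untreated replicate 1, 5 tests passed, the 3 and those of *Flt1* and *Vegfc* against CB. Without the library term 0 passed, with the directions kept (-1.11, -1.28 and -0.68).

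*Vegfb* itself was at 127, 140 and 141 CPM in dilator muscle of the untreated libraries and at 90.6 and 89.8 CPM in the dilated libraries. The groups did not overlap, but the fitted change was -0.41 ± 0.17 (SE, adjusted p = 0.13), within the fold limit. In stroma 1 the dilated libraries had 147 and 130 CPM, above the untreated range of 107 to 124 CPM (0.29 ± 0.18, adjusted p = 0.51). *Vegfa* in dilator muscle was at 68.1 and 38.5 CPM after dilation, against 59.1 to 77.9 CPM untreated, with a change of -0.09 ± 0.20 (adjusted p = 0.82). This turned to 0.19 without dilated replicate 2. In stroma 2 *Vegfa* had 48.8 and 29.2 CPM against 43.8 to 83.4 CPM (-0.41 ± 0.36, adjusted p = 0.78), and passed with the series block (-0.67, adjusted p = 0.037). *Vegfc* in sphincter 2 had 40.7 and 23.9 CPM against 36.7, 79.1 and 69.7 CPM (-1.02 ± 0.43, adjusted p = 0.26). Its fitted change with constriction was similar, at -1.22 ± 0.40 (adjusted p = 0.49). Dilated against constricted libraries gave 0.20 ± 0.53 (adjusted p = 0.92). None of these comparisons passed, on 127 UMIs over all libraries. Both changes from untreated also share the untreated libraries, so their likeness is partly built in.

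**Figure D5:**
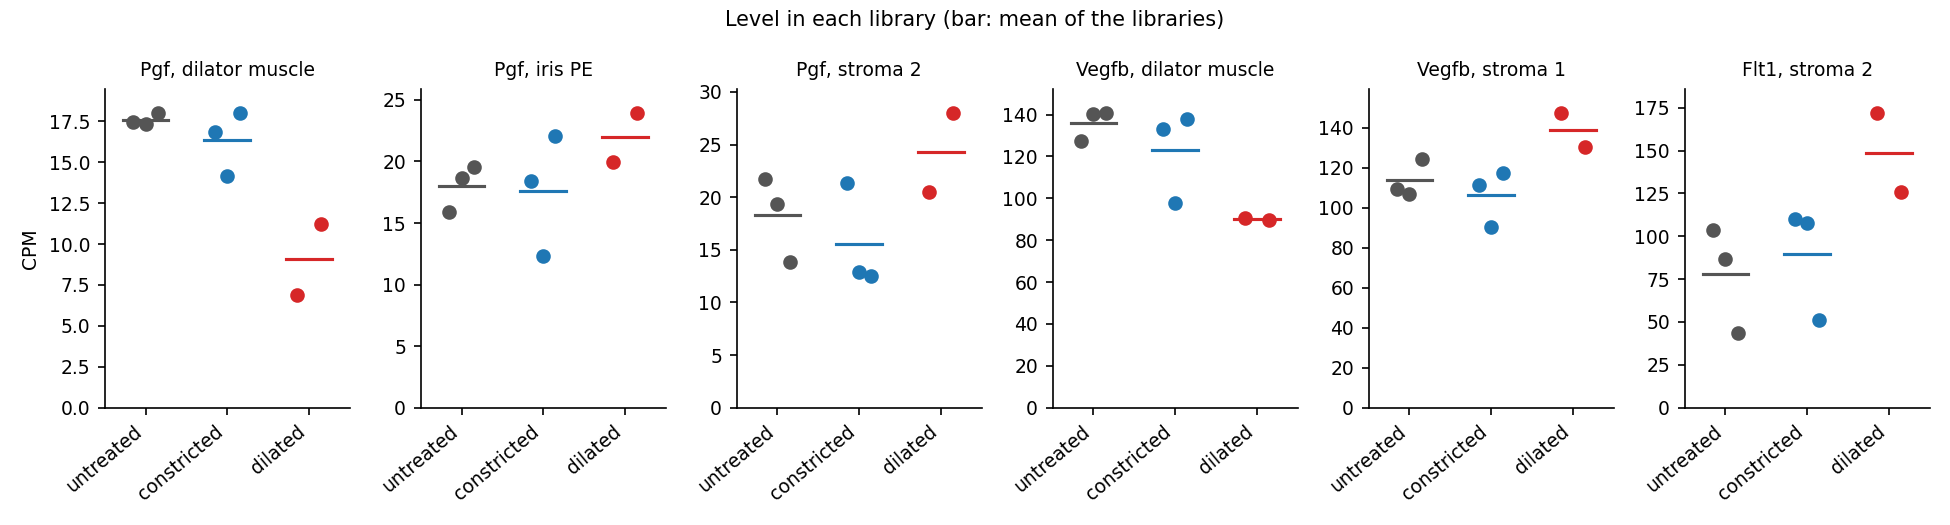
CPM of *Pgf*, *Vegfb* and *Flt1* in the named cell types, 1 point per library, by treatment, with the mean of the libraries as a bar. *Pgf* in dilator muscle is at 6.91 and 11.2 CPM in the dilated libraries and at 14.2 CPM or more in the others.

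Among the angiopoietins, *Angpt2* in dilator muscle was at 46.8, 54.1 and 47.6 CPM untreated and at 58.4 and 57.9 CPM after dilation, a fitted change of 0.41 ± 0.16 (SE, adjusted p = 0.12). The constricted libraries had 55.0, 65.1 and 63.0 CPM and enclosed the dilated ones. In iris PE *Angpt2* had 20.1, 27.3 and 27.0 CPM untreated and 40.2 and 30.8 CPM dilated (0.51 ± 0.20, adjusted p = 0.41). In stroma 1 the change was 0.76 ± 0.34 (adjusted p = 0.33) and came from dilated replicate 1 (55.7 CPM), without which it was -0.03. *Angpt1* in dilator muscle had 49.2, 47.7 and 49.7 CPM untreated and 61.1 and 49.9 CPM dilated (0.37 ± 0.16, adjusted p = 0.16).

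Among the receptors, *Flt1* in stroma 2 had 172 and 126 CPM in the dilated libraries, above the untreated (43.6 to 104 CPM) and the constricted ones (51.2 to 110 CPM). The fitted change from untreated was 1.02 ± 0.34 (SE), with an unadjusted p of 0.010 and an adjusted p of 0.21. With no filter on low counts the fit gave 1.03 and an adjusted p of 0.00016, and under the other alternatives the adjusted p reached 0.64. Without the filter 299 of 201232 tests of all genes were also called with constriction, against 10 of 85092 with it. With dilation the calls were 4011 without the filter and 2840 with it. *Flt1* was found in 20.6% and 14.4% of the stroma 2 nuclei of the dilated libraries and in 6.59% to 16% of those of the other libraries. In the joint model the effect of dilation on *Flt1* in dilator muscle minus that in stroma 2 was -1.34 ± 0.42 (adjusted p = 0.060). This difference passed with no filter on low counts and without constricted replicate 1 (-1.37, adjusted p = 0.028).

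In stroma 2 the summed level of the 12 endothelial markers was 306 to 363 CPM untreated, 253 to 377 CPM constricted and 649 to 865 CPM dilated. In 2 of the 12 genes both dilated libraries lay above all untreated ones. How many of all genes in stroma 2 do so is not given, so this count has no background. *Cldn5* had 99.1, 105 and 132 CPM untreated and 373 and 631 CPM dilated (2.20 ± 0.34, adjusted p = 0.0089). *Erg* had 6.04, 7.51 and 4.25 CPM untreated and 58.5 and 23.4 CPM dilated (2.85 ± 0.56, adjusted p = 0.023). *Erg* lost its call without each untreated replicate in turn and without dilated replicate 1 (2.06 to 3.17, adjusted p from 0.054 to 0.20). *Cldn5* lost it without untreated replicate 2 (2.16, 0.062) or 3 (2.35, 0.053). *Eng* had 105, 91.0 and 80.7 CPM untreated and 87.9 and 87.6 CPM dilated, *Emcn* 73.7, 56.3 and 54.1 CPM and 57.7 and 75.3 CPM, and *Cdh5*, *Egfl7*, *Robo4* and *Tal1* were at 1.62 CPM or less in both dilated libraries. Nuclei with 3 or more of the 12 markers held 25 of the 639 *Flt1* UMIs in dilated replicate 1 and 2 of the 215 in dilated replicate 2. The part of endothelial RNA in the remaining *Flt1* UMIs was not tested.

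In endothelial cells *Flt1* had 4377 and 5253 CPM after dilation, within the spread of the other libraries. *Kdr* had a fitted change of 1.09 ± 0.67 (adjusted p = 0.87), which turned to -1.06 without dilated replicate 1. *Tek* (-0.29 ± 0.31, adjusted p = 0.94) and *Vegfc* (-0.43 ± 0.53, adjusted p = 0.97) did not pass either. Without dilated replicate 1 they were -0.71 and -1.33, and without dilated replicate 2 -0.027 and -0.085. Without doublets the 3 changes were 0.81, -0.45 and -0.63. Of the 1352 genes tested in endothelial cells 0.0% were called with dilation.

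Constriction was compared with no treatment in the same fits. Again 0 of 53 member tests passed, against 0.0118% of all tests, and 4 had an unadjusted p under 0.05, against 5.25% of all tests (DESeq2 called 0, with 3 such p-values). The 4 included *Vegfa* in sphincter 1, at 48.4, 33.5 and 29.8 CPM untreated and 62.5, 84.7 and 59.7 CPM constricted. All constricted libraries lay above all untreated ones (1.00 ± 0.32, adjusted p = 0.47). The dilated libraries had 62.7 and 36.9 CPM there (0.56 ± 0.35, adjusted p = 0.64). *Kdr* in endothelial cells had a change of 1.86 ± 0.65 (adjusted p = 0.25), with constricted replicate 3 below all untreated libraries. The 4 also included this test, *Vegfc* in sphincter 2 (-1.22 ± 0.40, adjusted p = 0.49) and *Vegfb* in CBE (-0.58 ± 0.26, adjusted p = 0.67). Dilated against constricted libraries gave 0 of 53, against 2.65% of all tests, with 3 unadjusted p-values under 0.05 by edgeR (12.0% of all tests) and 3 by DESeq2, which called 0.

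The other genes of the pathway, 73 in 6 lists of which 69 were in the files, were followed in dilator muscle. There 60 were tested, of which 13 rose and 4 fell with dilation, against 7.2% of all genes tested that rose and 6.14% that fell. The median change of the 60 was 0.31, against 0.02 for all genes. The lists were chosen with earlier results of these data known, so their counts and medians are a description and not a test. Among 14 targets of the hypoxia response 5 rose and 0 fell, with a median of 0.73. They included *Slc2a1*, the glucose transporter GLUT1 (302, 367 and 364 CPM untreated, 648 and 1002 CPM dilated), and the glycolytic genes *Ldha* (1.28 ± 0.18, adjusted p = 0.00051) and *Pgk1* (1.10 ± 0.18, adjusted p = 0.0015). The collagen hydroxylase gene *P4ha1* rose by 0.82 (SE 0.15, adjusted p = 0.0036). *Vegfa*, the best known target of this response, was not among them, as given above. Of the 10 oxygen sensing genes *Arnt2*, a partner of hypoxia-inducible factors, rose (0.99 ± 0.24, adjusted p = 0.015) and 0 fell, with a median of -0.02.

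Of 8 tested ligands and co-receptors outside the members 2 rose and 2 fell. The integrin subunits *Itga5* (1.48 ± 0.18, adjusted p = 0.00020) and *Itgb1* (1.41 ± 0.22, adjusted p = 0.0010) rose. *Vegfd*, the other VEGFR3 ligand, fell from 27.4, 27.4 and 28 CPM to 13.6 and 14.6 CPM (-0.80 ± 0.19, adjusted p = 0.015), and *Plxna1*, a semaphorin receptor, fell too (-0.79 ± 0.21, adjusted p = 0.024). Of 8 genes of ligand processing and mRNA decay *Zfp36*, which destabilizes AU-rich mRNAs, rose (2.24 ± 0.53, adjusted p = 0.014). *Ccbe1*, a cofactor of VEGF-C maturation, fell from 160, 157 and 141 CPM to 88.3 and 72.1 CPM (-0.74 ± 0.14, adjusted p = 0.0048). Of 12 genes of endothelial signalling and response *Prkca* (1.05 ± 0.13, adjusted p = 0.00032), *Rcan1* (1.35 ± 0.23, adjusted p = 0.0019) and *Klf4* (2.85 ± 0.52, adjusted p = 0.0029) rose, and the adaptor *Shb* fell (-0.65 ± 0.17, adjusted p = 0.025). Of 8 antagonists *Thbs1*, the antiangiogenic thrombospondin 1, rose from 3.12, 0.563 and 0.316 CPM to 31.9 and 46.5 CPM (5.80 ± 0.54, adjusted p = 4.4e-05).

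Several of these calls were lost when 1 library was left out. Those of *Shb* (adjusted p = 0.056 and 0.18) and *Plxna1* (0.065 and 0.17) were lost without dilated replicate 1 or 2, and that of *Arnt2* (0.059 and 0.071) likewise. *Vegfd* was lost without dilated replicate 1 (adjusted p = 0.13), *Ccbe1* without dilated replicate 2 (0.056) and *Zfp36* without dilated replicate 2, where its change was 0.84 (0.31). Without untreated replicate 2 or 3, *Shb*, *Vegfd*, *Plxna1*, *Arnt2* and *Zfp36* were lost, at adjusted p from 0.066 to 0.11. Calls over all genes of dilator muscle also fell there, from 2054 to 1143 and 1203 (1989 without untreated replicate 1). With each library left out in turn the changes kept their direction. *Vegfd* ran from -0.92 to -0.66, *Plxna1* from -0.95 to -0.68 and *Arnt2* from 0.95 to 1.06. *Ccbe1* ran from -0.81 to -0.67, *Shb* from -0.76 to -0.55 and *Zfp36*, the widest, from 0.84 to 2.99. Outside dilator muscle the same lists gave 4 calls in stroma 2 (of 53 tested, against 1.73% of all genes there), 4 in sphincter 2 (of 23, against 2.87%), 2 in sphincter 1 (of 28, against 1.95%), 2 in iris PE (of 53, against 0.595%) and 2 in stroma 1 (of 34, against 1.17%), and 0 in CBE, CB, endothelial cells and leukocytes. *Thbs1* was among those of stroma 2, with 9.67, 7.19 and 3.96 CPM untreated and 167 and 118 CPM dilated (4.55 ± 0.33, adjusted p = 8.9e-05).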

How the data were processed

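Nuclei were purified from pooled irises and sequenced as 10x Genomics 3' v3 libraries, in 5 batches and 2 sequencing runs whose assignment to libraries is not given in the sources used here. The authors aligned reads to mm10 including introns with Cell Ranger 3.1.0 and deposited raw UMI counts for every gene and nucleus. The authors also deposited, per nucleus, the cell type assigned in Seurat 4.0.1 and the percent of mitochondrial transcripts (at most 1%). Counting introns and polyA-primed 3' ends means that isoforms, such as soluble VEGFR1, are not resolved. No same-strand gene overlapped a member in GENCODE vM21.

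The counts of all nuclei of 1 library and 1 cell type were added up. Differences were tested with edgeR 4.0.16 (quasi-likelihood, TMM scaling, default filter on low counts, all 8 libraries in 1 fit per cell type, Benjamini-Hochberg over the genes tested), and called at an adjusted p under 0.05 and an absolute log2 fold change above 0.6. In simulated data 2-fold rises were recovered for 82% of 50 genes in dilator muscle (15108 genes tested) and 64% in endothelial cells (1358 genes). Falls to 0.5 of the level were recovered for 72% and 38%, and 1.5-fold rises for 18% and 12%, in the same order. The simulated counts had 1 fixed dispersion for all genes and no effect of the library-number series. Only genes above a limit of UMIs were changed, so the shares may overstate recovery in the real libraries. SEs come from the fold change and its F value. Alternatives were RLE scaling, DESeq2 1.42.0, no filter, each library left out, Scrublet doublets removed (359 nuclei, 1.04%, and 17 of 149 untreated endothelial nuclei), a replicate block and a block of the library-number series (2 to 4, 13 and 15 to 18). Shares of nuclei were also computed after thinning to 1000 UMIs.

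Members were tested in every cell type where they passed the filter on low counts, and not every result of these tests is named. Of the pathway lists, at most 4 called genes a list, by smallest adjusted p in dilator muscle, were named, and for likeness the 3 closest genes. Members and lists were chosen with earlier results of these data known.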

Additional observations from a re-analysis of the deposited data

Results flagged for a closer look

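The effect of dilation differed between cell types, by the test of the difference itself, for 3 pairs. *Pgf* changed by -1.15 (log2) in dilator muscle relative to iris PE and by -1.35 relative to stroma 2, and *Vegfb* by -0.69 relative to stroma 1. These are 3 of 73 tests of members, a share no higher than the 4.52% of all tests that passed. Both *Pgf* tests used the same dilator muscle counts and are not independent. Without dilated replicate 1, or with no library term, 0 passed, and DESeq2 called 1. No condition had 4 libraries or more, so no library was tested for standing apart.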

How the results depend on the processing

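The count of members called with dilation was 0 as reported, 1 with no filter (*Flt1* in stroma 2), 2 with the library-number series block, and 0 to 1 when a library was left out. Dilated against constricted gave 1 with no filter, 1 with the series block and 0 to 1 with a library left out, and constricted against untreated 0 throughout. The replicate block gave 0 in all 3 comparisons. Replicate numbers did not pair the libraries: deviations from the condition means in dilator muscle correlated from -0.028 to 0.48 for same-numbered libraries and from -0.48 to 0.48 for others. They followed the library-number series instead, with 0.17 to 0.48 for the 8 pairs within a series. Pairs across series had -0.48 to 0.092 (11 of 13 negative). Deviations within a condition sum to 0, so those of the 2 dilated libraries are mirror images. The pairs are therefore not independent, and positive and negative values partly follow from each other. The labels do not say what the series are. The 3 differences between cell types fell to 1 under DESeq2 and 0 with no library term, and ran from 0 to 5 with a library left out. Changes that turned sign without 1 library were *Vegfa* in dilator muscle (-0.48 to 0.19), *Kdr* in endothelial cells (-1.06 to 1.66) and *Angpt2* in stroma 1 (-0.027 to 1.21). After thinning, shares of nuclei fell to 92.3% (*Flt1*) and 66.2% (*Tek*) in endothelial cells, 5.2% (*Flt1*, stroma 2) and 13% (*Angpt1*, sphincter 1). The number of members highest in endothelial cells was 5 under each of its alternatives. Over all genes, 2840 tests were called with dilation, 5335 with the series block and from 1373 with a library left out. For constriction 10 were called (1 to 299 under the alternatives), for dilated against constricted 2258 (from 1171 without dilated replicate 2), and for differences between cell types 5686 (2433 by DESeq2, 1198 with no library term, from 3514 with a library left out). A gene with few UMIs in the 12 to 65 endothelial nuclei of a library allows no firm statement, and p-values rest on 2 or 3 libraries per condition.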
